A study of Mus musculus with 21 samples.

Results

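Colony-stimulating factors are growth factors that act on monocytes, macrophages, neutrophils and their precursors. The genes described here encode receptors for these factors and the ligands of CSF1R, in macrophages sorted from mouse kidneys. They are Csf1r, Csf1, Il34, Csf2ra, Csf2rb, Csf2rb2 and Csf3r. They were chosen by symbol and are 7 of the 34236 gene names in the count table. RNA was sequenced from male C57BL/6J mice labelled as 24 weeks old, with a flow sort time of 5 hours. Kidneys came from sham-operated animals (Sham) or from animals with renal artery stenosis (RAS), a surgical narrowing of the artery that makes the kidney ischemic, and none of the groups received any other agent or carried a transgene. Live lineage-negative CD45+ cells in the F4/80+CD64+ gate were divided into kidney-resident macrophages (KRM, intermediate for CD11b and CD11c), CD11chi Mϕ and CD11clo Mϕ, both of which are high for CD11b and are labelled as monocyte-derived. There were 4 Sham and 3 RAS libraries of KRM, 3 Sham and 4 RAS libraries of CD11chi Mϕ, and 3 Sham and 4 RAS libraries of CD11clo Mϕ, 21 in all. The labels do not say whether each library came from a separate animal, so that p-values measure the spread between libraries, part of which may be technical.

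CSF1R is the receptor tyrosine kinase on which most tissue macrophages depend. It binds CSF1, made by stromal and many other cells, and IL-34, which in the kidney is known as a product of tubular epithelial cells. GM-CSF, the product of Csf2, binds a ligand-specific alpha chain encoded by Csf2ra together with the common beta chain encoded by Csf2rb, which also serves the receptors for the interleukins IL-3 and IL-5. Rodents carry a further beta chain gene, Csf2rb2, whose product pairs with the IL-3 receptor. Csf3r encodes the receptor for G-CSF and is best known from neutrophils and their precursors, although monocytes also express it. The beta chain and CSF3R signal through JAK2 and the STAT family, and feedback genes such as Cish and Socs2 are among the best known targets of STAT5.

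The libraries held 6891177 to 18592427 counts and 14607 to 17703 counted genes. The gene of the sorting antigen CD11c, Itgax, was at 8.44 to 58.5 CPM (counts scaled to library size) in CD11clo Mϕ, the gate that is low for it, and higher in all libraries of the other gates. In RAS it was at 365 to 925 CPM in CD11chi Mϕ against 144 to 264 in KRM, but in Sham the 116 to 376 CPM of CD11chi Mϕ lay mostly below the 348 to 431 of KRM, against the order of the gates. All 10 macrophage identity markers were detected in every group. Several libraries stood apart. CD11chi Sham replicate 3 had 7356 CPM of summed tubular epithelium markers, KRM RAS replicates 2 and 3 had 4942 and 3795, and CD11clo Sham replicate 3 had 2322, against 17.2 to 1149 in the other 17. CD11chi RAS replicates 2, 3 and 4 had 1999, 4850 and 5174 CPM of summed dendritic cell markers, against 1026 in replicate 1. The KRM RAS replicate 1 column of the count table correlated with its namesake in the log2 table by a Spearman rho of only 0.688 across 12333 genes, where the other 20 libraries had 0.908 to 0.948. That count column was closest to the log2 column of KRM Sham replicate 4, with a rho of 0.892, and which of the columns holds the library labelled KRM RAS replicate 1 could not be settled. The count columns of KRM Sham replicate 1 and KRM RAS replicate 2 were also slightly closer to the log2 column of another library of their own group (0.945 against 0.933, and 0.913 against 0.909). The log2 column of KRM RAS replicate 1 was left out of the levels per length, its counts were kept in the fits, and the values without it are given beside the results of the members in KRM RAS. Values of the members, and of Csf2, Cish and Socs2, without single libraries are given beside many but not all of the results they moved. The other pathway genes are given with all libraries alone and may rest on those that stand apart. Setting aside KRM RAS replicates 2 and 3 leaves replicate 1, the library of unsettled identity, as the single KRM RAS library, so that those values are given with no test.

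Compared per transcript length, as log2(TPM + 1) from the authors' quantile-normalized table, Csf1r was the most abundant of the 7 in 5 of the 6 groups. In KRM Sham its mean level was 10.74 ± 0.186 (SD, n = 4), followed by Csf2ra at 9.60 ± 0.0779, Csf3r at 5.85 ± 0.173, Csf2rb at 5.6 ± 0.0256, Csf2rb2 at 3.8 ± 0.106, Csf1 at 2.36 ± 0.540 and Il34 at 0.97 ± 0.294. In KRM Sham every receptor gene thus lay above both ligand genes on this scale, whereas in KRM RAS Il34 at 4.46 and Csf1 at 3.75 lay above Csf2rb2 at 3.31 (n = 2). Those 2 columns are replicates 2 and 3, which are rich in tubular epithelium markers. By counts, Il34 was at 23.6 and 17.2 CPM in them and at 1.47 in replicate 1. In CD11chi RAS the order at the top was turned, with Csf2ra at 8.71 ± 0.385 and Csf1r at 8.59 ± 1.22 (SD, n = 4), values that did not differ beyond their spread. In CD11clo RAS Csf3r reached 8.30 ± 0.768, close to Csf2ra at 8.68 ± 0.153. The alpha chain gene Csf2ra was above the beta chain gene Csf2rb in every group. All levels from here on are CPM scaled by TMM factors, which take no account of length and are compared only within a gene.

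**Figure D1:**
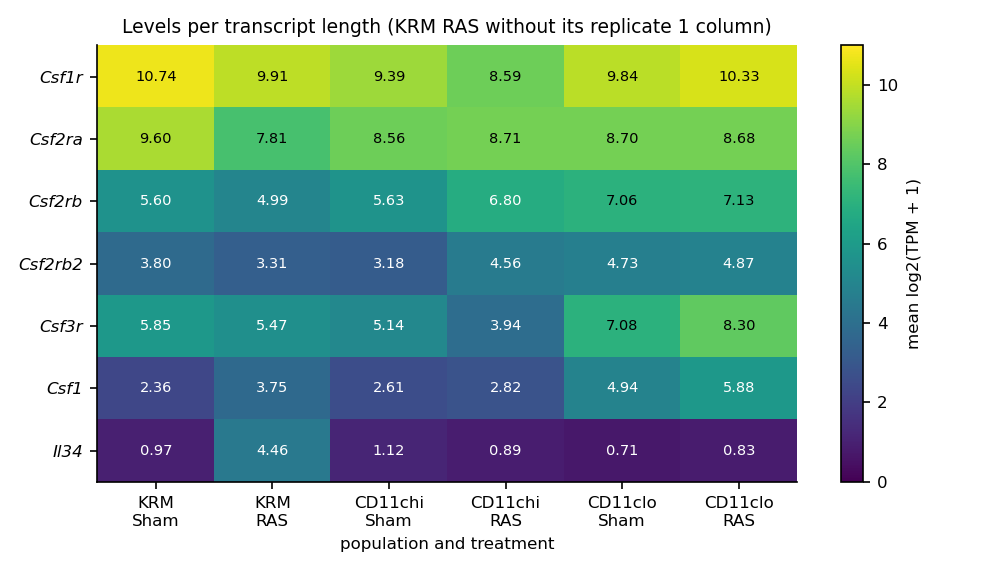
Mean log2(TPM + 1) of the 7 genes (rows) in the 6 groups (columns), with n = 4, 2, 3, 4, 3 and 4 columns from left to right; color gives the level on the scale at the right and the mean is printed in each cell. Csf1r and Csf2ra lie highest in every group, Csf3r rises to 8.30 in CD11clo RAS, and Il34 stands at 4.46 in KRM RAS (replicates 2 and 3) against 0.71 to 1.12 elsewhere.

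Csf1r was highest and least variable in KRM from Sham kidneys. The 4 KRM Sham libraries had 3611, 3720, 3440 and 3699 CPM, the 3 KRM RAS libraries 3074, 1540 and 2031. CD11clo Mϕ had 2060, 1962 and 2548 CPM in Sham and 2514, 2381, 4149 and 3088 in RAS. CD11chi Mϕ had 2135, 2690 and 634 CPM in Sham and 2360, 539, 973 and 907 in RAS. The low Sham value belongs to CD11chi Sham replicate 3, the library richest in tubular epithelium markers, and the 3 low RAS values to the libraries richest in dendritic cell markers. CD11chi RAS replicate 2, at 1999 CPM of summed dendritic cell markers, had 539 CPM of Csf1r. CD11chi Sham replicate 1, at 1779 CPM of those markers, had 2135. The order of the group means was KRM Sham at 3617 ± 128 CPM, CD11clo RAS at 3033 ± 805, KRM RAS at 2215 ± 783, CD11clo Sham at 2190 ± 314, CD11chi Sham at 1820 ± 1064 and CD11chi RAS at 1195 ± 800 (SD, n = 3 or 4), and every neighbouring pair overlapped. In sorted bulk samples, fewer cells of a type and less RNA per cell cannot be told apart.

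**Figure D2:**
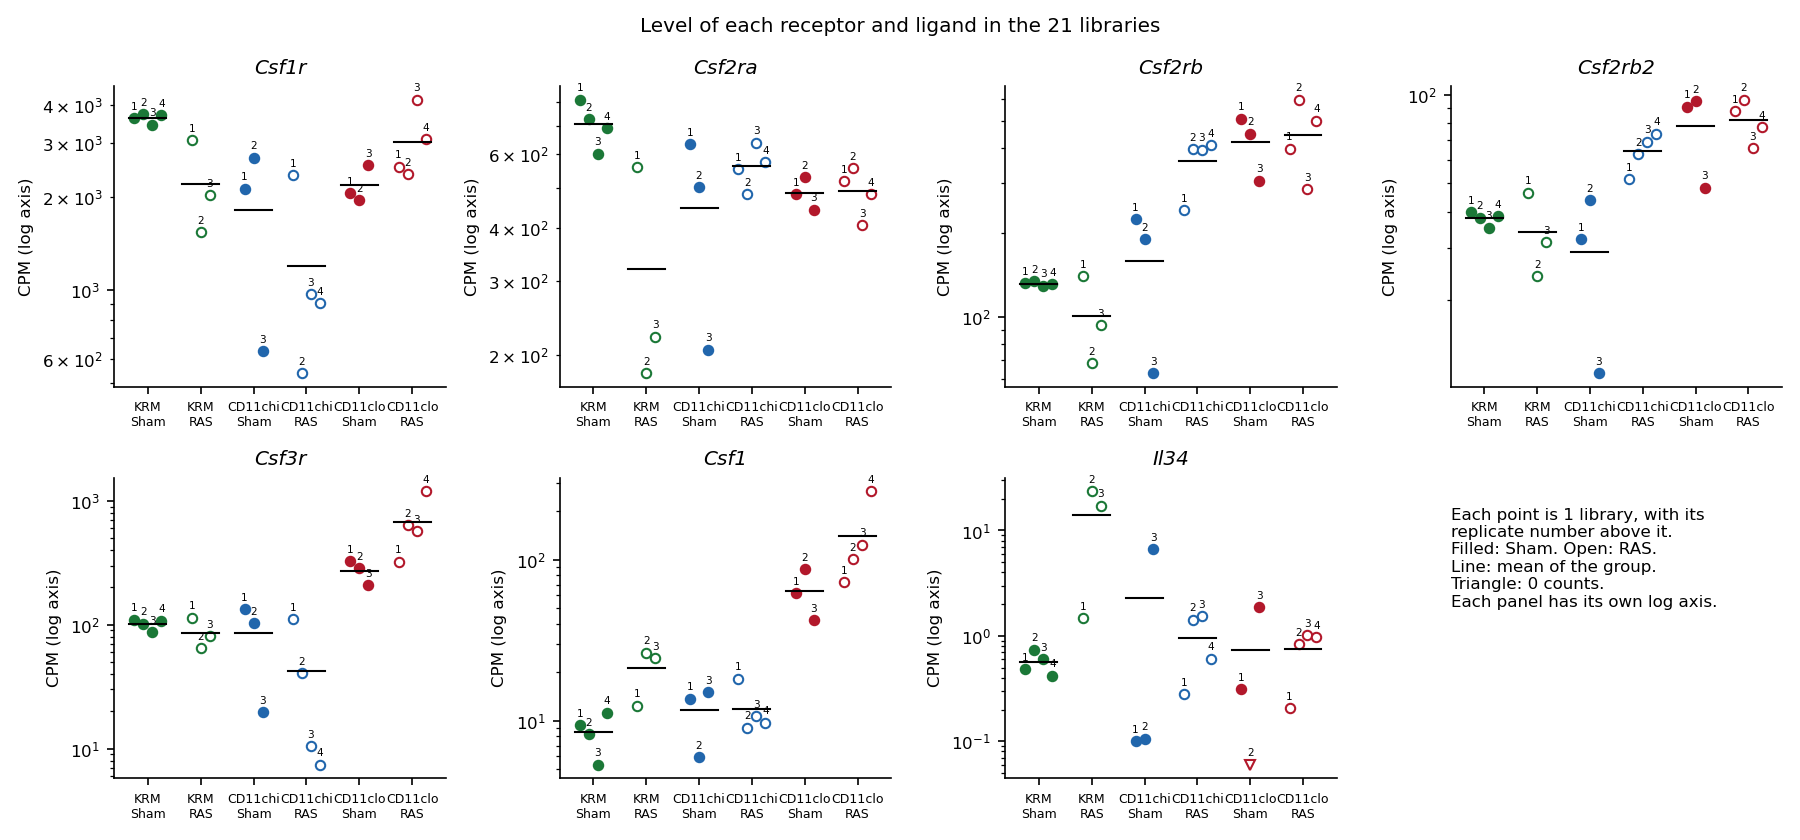
CPM of each gene on a log axis, 1 panel per gene, in the 6 groups; each point is 1 library with its replicate number, filled for Sham and open for RAS, and the line is the group mean. KRM Sham libraries lie closest together for Csf1r and Csf2rb, CD11clo Mϕ stand above the other populations for Csf1 and Csf3r, and Il34 is high in KRM RAS replicates 2 and 3 and in CD11chi Sham replicate 3.

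The ligand gene Csf1 had its highest levels in CD11clo Mϕ. The CD11clo libraries had 61.9, 87.5 and 42.2 CPM in Sham and 72.5, 101, 124 and 266 in RAS. CD11chi Mϕ had 13.7, 5.95 and 15.1 CPM in Sham and 18.2, 9.04, 10.6 and 9.71 in RAS. KRM had 9.39, 8.25, 5.34 and 11.2 CPM in Sham and 12.4, 26.4 and 24.5 in RAS. All 7 CD11clo libraries lay above all 14 others, and the lowest of them was at 42.2 CPM against 26.4 for the highest library of the other populations. CD11clo RAS at 141 ± 86.0 and CD11clo Sham at 63.9 ± 22.7 CPM overlapped, as did the groups that followed them, KRM RAS at 21.1 ± 7.61, CD11chi RAS at 11.9 ± 4.25, CD11chi Sham at 11.6 ± 4.92 and KRM Sham at 8.54 ± 2.46 (SD, n = 3 or 4), each with its neighbour.

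Il34, the other ligand of CSF1R, was near the limit of detection in most libraries. KRM Sham had 0.481, 0.741, 0.598 and 0.418 CPM, where 3 counts correspond to 0.150 to 0.361 CPM. KRM RAS had 1.47, 23.6 and 17.2 CPM, so that the group mean of 14.1 ± 11.4 (SD, n = 3) describes none of its libraries. CD11chi Sham had 0.1, 0.106 and 6.65 CPM and CD11chi RAS 0.281, 1.43, 1.54 and 0.607. CD11clo Sham had 0.310, 0 and 1.88 CPM and CD11clo RAS 0.206, 0.835, 1.02 and 0.973. The 4 libraries with the highest Il34 were the 4 with the highest summed tubular epithelium markers, KRM RAS replicates 2 and 3, CD11chi Sham replicate 3 and CD11clo Sham replicate 3. The library with the fifth highest sum, KRM Sham replicate 3 at 1149 CPM, was only at rank 13 for Il34. All 11 markers of that list were detected in some libraries, among them the proximal tubule transporter gene Slc34a1 at 6.18 to 5175 CPM over the 21 libraries, and their part in the Il34 level was not tested.

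**Figure D3:**
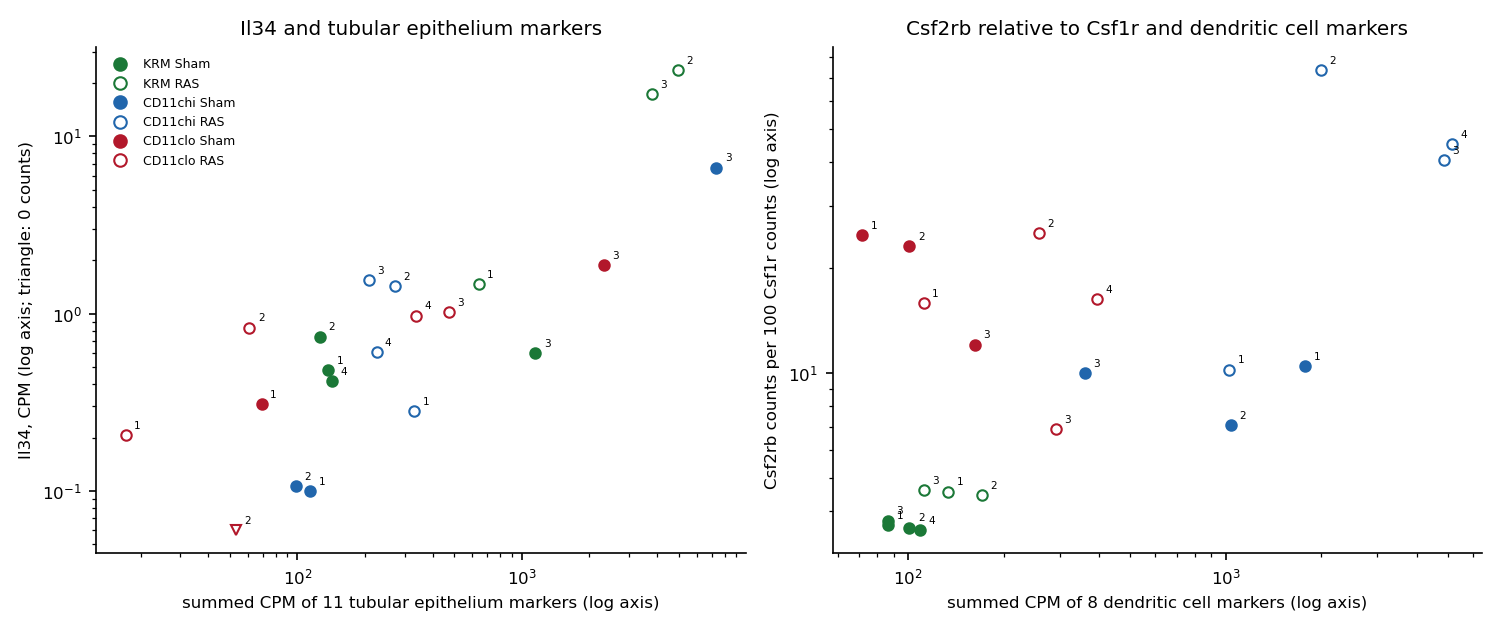
Left, Il34 in CPM against the summed CPM of 11 tubular epithelium markers; right, Csf2rb counts per 100 Csf1r counts against the summed CPM of 8 dendritic cell markers; all axes are logarithmic, each point is 1 library with its replicate number, filled for Sham and open for RAS. The libraries with the most Il34 (23.6, 17.2 and 6.65 CPM) are those with the highest tubular sums, and CD11chi RAS replicates 2, 3 and 4 stand apart at 40.7 to 73.6 Csf2rb counts per 100 Csf1r counts.

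RNA of both chains of the GM-CSF receptor was found in all populations, in a different balance. For the alpha chain gene Csf2ra, KRM had 810, 728, 603 and 692 CPM in Sham and 558, 181 and 221 in RAS. CD11chi Mϕ had 635, 500.2 and 206 CPM in Sham and 552, 482, 639 and 575 in RAS. CD11clo Mϕ had 482, 529 and 443 CPM in Sham and 517, 556, 407 and 483 in RAS. The 3 lowest values, 181, 206 and 221 CPM, all belong to libraries high in tubular epithelium markers. The group means ran from 708 ± 85.8 in KRM Sham through 562 ± 65.1 in CD11chi RAS, 491 ± 63.3 in CD11clo RAS, 485 ± 42.8 in CD11clo Sham and 447 ± 220 in CD11chi Sham to 320 ± 207 in KRM RAS (SD, n = 3 or 4), and every neighbouring pair overlapped.

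For the common beta chain gene Csf2rb the populations were ordered differently. KRM had 132, 134, 129 and 131 CPM in Sham, a spread of 1.89 CPM (SD), and 140, 68.6 and 93.7 in RAS. CD11clo Mϕ had 510, 451 and 306 CPM in Sham and 398, 596, 286 and 501 in RAS. CD11chi Mϕ had 223, 190 and 63.0 CPM in Sham and 241, 397, 396 and 409 in RAS, so that 3 of the 4 CD11chi RAS libraries were at the level of CD11clo Mϕ. All KRM libraries lay below all CD11clo and all CD11chi RAS libraries. The means were 445 ± 134 in CD11clo RAS, 422 ± 105 in CD11clo Sham and 361 ± 80.1 in CD11chi RAS, which overlapped each with the next, then, without overlap, 158 ± 84.3 in CD11chi Sham, 132 ± 1.89 in KRM Sham and 101 ± 36.3 in KRM RAS (SD, n = 3 or 4), which again overlapped.

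Csf2rb2 was lower in CPM and followed the same order in most libraries. CD11clo Mϕ had 91.1, 95.1 and 48.3 CPM in Sham and 87.6, 96.1, 65.9 and 77.4 in RAS, CD11chi Mϕ 32.2, 43.9 and 11.3 in Sham and 51.7, 62.6, 69.2 and 73.6 in RAS, and KRM 40.0, 38.2, 35.3 and 38.6 in Sham and 46.4, 24.1 and 31.6 in RAS. The means of CD11clo RAS at 81.8 ± 13.1, CD11clo Sham at 78.2 ± 25.9 and CD11chi RAS at 64.3 ± 9.53 CPM overlapped with their neighbours, and lay above KRM Sham at 38.0 ± 1.98, KRM RAS at 34.0 ± 11.3 and CD11chi Sham at 29.1 ± 16.5 (SD, n = 3 or 4). The nearest values across that gap were CD11clo Sham replicate 3 at 48.3 CPM and KRM RAS replicate 1 at 46.4. The 2 beta chain genes share 17.1% of the 50-base words of Csf2rb transcripts and 18.8% of those of Csf2rb2, and 6.46% and 7.05% of the 100-base words, so that reads may be divided between them and their levels are to that extent uncertain. On GRCm38 they lie next to each other on chromosome 15, Csf2rb2 at 78282507 to 78305721 on the minus strand and Csf2rb at 78325752 to 78353847 on the plus strand.

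Csf3r was the receptor gene with the widest range. CD11clo Mϕ had 326, 285 and 209 CPM in Sham and 322, 634, 570 and 1198 in RAS. KRM had 110, 102, 86.6 and 108 CPM in Sham and 114, 64.2 and 80.7 in RAS. CD11chi Mϕ had 134, 103 and 19.6 CPM in Sham and 110, 40.4, 10.4 and 7.41 in RAS. All 7 CD11clo libraries lay above the other 14, and the 2 lowest values came from CD11chi RAS replicates 3 and 4. The means fell from 681 ± 370 in CD11clo RAS and 274 ± 59.6 in CD11clo Sham, which overlapped, to 102 ± 10.7 in KRM Sham, 86.3 ± 25.3 in KRM RAS, 85.3 ± 59.0 in CD11chi Sham and 42.1 ± 47.8 in CD11chi RAS (SD, n = 3 or 4), which overlapped with their neighbours. Summed markers of neutrophils were also highest in CD11clo Mϕ, at 1012 to 3797 CPM against 6.69 to 302 in the other populations. Of the 12 markers, Ly6g, and the precursor genes Mpo and Elane, were at 0 counts in 17, 18 and 16 of the 21 libraries and never above 0.452, 0.517 and 1.97 CPM, while Cxcr2, Mmp8, S100a8, S100a9, Retnlg and Mmp9 reached 197, 607, 797, 1052, 1266 and 1279 CPM. All 6 neutrophil markers that could be tested were lower in KRM than in CD11clo Mϕ in Sham, and the part of these markers in the Csf3r level was not tested.

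Promoter sequences were available for 4 of the 7 genes (RefSeq, GRCm38.p6, 250 bases before to 50 bases after the start). The 3 shown are those that hold a match to GAGGAA, the core bound by the macrophage factor PU.1, or to TTNNGNAA, a C/EBP motif, on either strand, and the matches are in capitals. Csf2ra is read from chr19:61228369-61228668 on the minus strand, Csf2rb2 from chr15:78305672-78305971 on the minus strand and Csf3r from chr4:126024409-126024708 on the plus strand.
Csf2ra: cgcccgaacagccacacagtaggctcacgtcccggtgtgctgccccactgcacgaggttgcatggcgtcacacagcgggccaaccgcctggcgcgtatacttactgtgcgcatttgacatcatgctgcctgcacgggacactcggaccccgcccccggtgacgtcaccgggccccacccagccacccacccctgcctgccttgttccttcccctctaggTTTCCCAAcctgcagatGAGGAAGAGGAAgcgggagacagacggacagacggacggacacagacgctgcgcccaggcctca
Csf2rb2: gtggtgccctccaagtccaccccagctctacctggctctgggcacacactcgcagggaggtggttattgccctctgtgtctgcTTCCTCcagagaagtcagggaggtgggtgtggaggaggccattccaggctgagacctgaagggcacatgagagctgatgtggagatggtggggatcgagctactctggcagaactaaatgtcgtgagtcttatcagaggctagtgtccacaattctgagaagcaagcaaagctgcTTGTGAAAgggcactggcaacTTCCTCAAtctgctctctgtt
Csf3r: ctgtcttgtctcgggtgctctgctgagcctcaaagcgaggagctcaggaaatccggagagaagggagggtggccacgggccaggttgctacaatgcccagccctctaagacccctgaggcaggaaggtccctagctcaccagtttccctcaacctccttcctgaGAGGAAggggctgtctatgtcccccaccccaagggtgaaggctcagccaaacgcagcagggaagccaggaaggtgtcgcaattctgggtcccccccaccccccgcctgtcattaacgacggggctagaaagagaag
In Csf2ra 2 copies of GAGGAA stand side by side from positions -14 and -8, and a C/EBP match begins at -31. In Csf2rb2 a GAGGAA match begins at -167 on the other strand, and a further one from position 30 overlaps a C/EBP match, with another C/EBP match at 9. Csf3r holds 1 GAGGAA match, from -86. The Csf1 promoter, at chr3:107760420-107760719, held neither motif, and none of the 4 held the AP-1 motif TGAGTCA. Of 32851 mouse promoters of the same length, 28.3% held GAGGAA, 40.7% TTNNGNAA and 5.20% TGAGTCA, so that single matches are common.

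In Sham kidneys, KRM differed from CD11clo Mϕ in the level of every receptor and ligand gene that could be tested. With edgeR's quasi-likelihood test and Benjamini-Hochberg adjustment over all genes, 6 of 6 members passed at 0.05, where 41.9% of all 12365 genes did (5185 genes). There were 2 members higher in KRM, where 19.5% of all genes were, and 4 lower, where 22.4% were. On the log2 scale, Csf1r was higher by 0.71 ± 0.132 (SE, adjusted p = 0.00339) and Csf2ra by 0.52 ± 0.140 (adjusted p = 0.0175). Csf1 had a log2 fold change of -2.95 ± 0.316 (adjusted p = 0.000193), Csf2rb of -1.71 ± 0.180 (adjusted p = 0.000175), Csf3r of -1.46 ± 0.173 (adjusted p = 0.000332) and Csf2rb2 of -1.07 ± 0.232 (adjusted p = 0.00684). Thus RNA of Csf1r and Csf2ra was higher in KRM, whereas that of both beta chain genes, Csf3r and Csf1 was lower. For all 6 the 4 KRM libraries did not overlap the 3 CD11clo libraries, a property whose share over all genes was not counted. All 10 monocyte markers were also lower in KRM, with sums of 588 to 882 CPM against 7313 to 18811 in CD11clo Mϕ, and 9 of 10 macrophage identity markers were higher and 1 lower, with sums of 15742 to 23163 against 4370 to 4713. Their part in the members' values was not tested. Il34 had too few counts to be tested in any comparison between populations in Sham. The call for Csf2ra was lost without CD11clo Sham replicate 1 (adjusted p = 0.0501) or KRM Sham replicate 2 (adjusted p = 0.0506), and with 1 fit over all 6 groups 3 members were called, the adjusted p being 0.28 for Csf1r, 0.281 for Csf2ra and 0.149 for Csf3r.

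**Figure D4:**
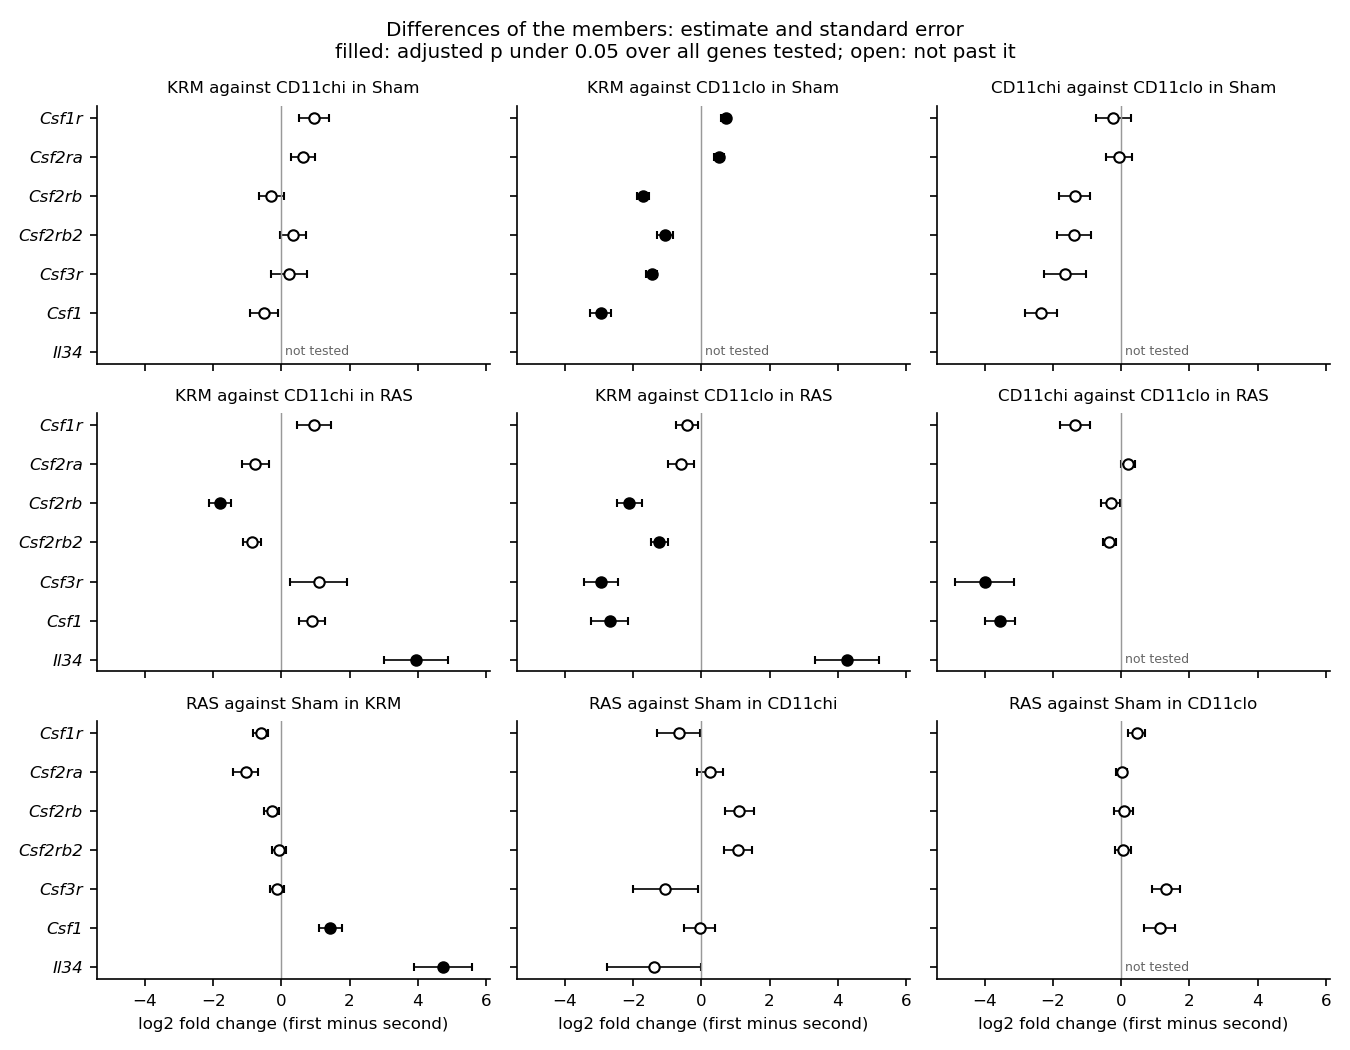
Log2 fold changes of the 7 genes in the 9 pairwise comparisons, first group minus second; points are estimates from edgeR, bars are standard errors, and filled points are called (adjusted p under 0.05). Csf1r and Csf2ra are to the right and the other 4 to the left in KRM against CD11clo Mϕ in Sham, and Il34 is far to the right in the 3 comparisons in which KRM RAS is the first group.

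Between KRM and CD11chi Mϕ in Sham, 0 of 6 members passed, where 5.13% of all 12380 genes did (635 genes). None of the 6 had an unadjusted p under 0.05, which 3037 of all genes had, and DESeq2 called 0 members among its 1687 genes. Of 10 monocyte markers 7 were lower in KRM (588 to 882 CPM summed, against 632 to 3314), as were 6 of 8 dendritic cell markers (86.2 to 109 against 361 to 1779) and 3 of 5 tested neutrophil markers. Of 10 macrophage identity markers 3 were higher and 0 lower (15742 to 23163 against 4288 to 10163). The part of these markers was not tested. Csf1r was at 3440 to 3720 CPM in KRM and 634 to 2690 in CD11chi Mϕ, without overlap, a log2 difference of 0.96 ± 0.444 (SE, adjusted p = 0.231). The lowest value was that of CD11chi Sham replicate 3, and without it Csf1r was called at a log2 difference of 0.57 ± 0.134 (adjusted p = 0.0285) and Csf2rb with -0.66 ± 0.118 (adjusted p = 0.0108). With all libraries Csf2rb was at -0.30 ± 0.363. Csf1 (-0.51 ± 0.4), Csf2ra (0.63 ± 0.349), Csf2rb2 (0.35 ± 0.376) and Csf3r (0.22 ± 0.522) were not called with or without that library, and without it the signs of Csf2rb2 (-0.01) and Csf3r (-0.23) turned. With the replicate number as a block, which pairs the Sham libraries, 89 genes and 0 members were called.

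Between CD11chi and CD11clo Mϕ in Sham, 0 of 6 members passed, where 1.52% of all 12105 genes did (184 genes), although 4 of the 6 had an unadjusted p under 0.05, which 2144 of all genes had. The same 4 also passed a fold above 2 with an unadjusted p under 0.05, as did 12.6% of all genes. In those 4 the 3 CD11chi libraries lay below the 3 CD11clo libraries, a property whose share over all genes was not counted. The log2 fold changes were -2.36 ± 0.473 for Csf1 (adjusted p = 0.0749), -1.65 ± 0.618 for Csf3r (adjusted p = 0.241), -1.38 ± 0.490 for Csf2rb2 (adjusted p = 0.22) and -1.37 ± 0.453 for Csf2rb (adjusted p = 0.192). Of 10 monocyte markers 2 were lower in CD11chi Mϕ (632 to 3314 CPM summed, against 7313 to 18811). Lower also was 1 of 6 tested neutrophil markers (50.3 to 160 against 1012 to 2540), and 1 of 8 dendritic cell markers was higher (361 to 1779 against 71.6 to 162). The part of these markers was not tested. Sham libraries with the same replicate number deviated together between populations, and with the number as a block 595 genes and 2 members were called, Csf1 with -2.40 ± 0.496 (adjusted p = 0.0464) and Csf2rb2 with -1.48 ± 0.259 (adjusted p = 0.0294). DESeq2 called 1 member, Csf1 (adjusted p = 9.33e-05), among 1051 genes. Without CD11chi Sham replicate 3, Csf1 (-2.70, adjusted p = 0.035) and Csf3r (-1.22, adjusted p = 0.0476) were called, and without replicate 3 of all Sham groups all 4 were. Csf1r and Csf2ra differed by -0.23 ± 0.522 and -0.07 ± 0.381, and turned to 0.13 ± 0.229 and 0.22 ± 0.186 without CD11chi Sham replicate 3.

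In RAS kidneys the beta chain genes and Csf3r were again lower in KRM than in CD11clo Mϕ, while Csf1r and Csf2ra were not called. Of 7 members tested 5 passed, where 9.17% of all 13179 genes did (1208 genes), 4 of them lower in KRM, where 5.89% of all genes were, and 1 higher, where 3.28% were. The log2 fold changes were -2.95 ± 0.496 for Csf3r (SE, adjusted p = 0.0252), -2.69 ± 0.539 for Csf1 (adjusted p = 0.0339), -2.11 ± 0.357 for Csf2rb (adjusted p = 0.0254) and -1.23 ± 0.251 for Csf2rb2 (adjusted p = 0.0348). Il34 was higher, with 4.26 ± 0.939 (adjusted p = 0.0392). Csf1r had -0.41 ± 0.323 (adjusted p = 0.407) and Csf2ra -0.59 ± 0.387 (adjusted p = 0.32). None of the 5 overlapped between the groups, a property whose share over all genes was not counted. All 10 monocyte markers were again lower in KRM, with sums of 610 to 1027 CPM against 3575 to 10466, as were all 7 neutrophil markers tested, with 6.86 to 24.3 against 2161 to 3797. Of 11 tubular epithelium markers 3 were higher, with 642 to 4942 CPM against 17.2 to 473, and of 8 T and NK cell markers 2 were. The part of these markers was not tested. These calls depended on single libraries. Without KRM RAS replicate 2, KRM RAS replicate 3 or CD11clo RAS replicate 2 none was kept, without CD11clo RAS replicate 4 Csf3r alone and without CD11clo RAS replicate 1 Csf1, Csf2rb and Csf3r were called. Their log2 fold changes over all single omissions stayed between -3.21 and -2.50 for Csf3r, -2.92 and -2.15 for Csf1, -2.43 and -1.90 for Csf2rb, -1.52 and -1.04 for Csf2rb2, and 3.67 and 4.77 for Il34. With KRM RAS replicate 1 as the single KRM RAS library the log2 difference was 0.99 for Il34, -2.54 for Csf3r, -3.47 for Csf1, -1.64 for Csf2rb and -0.79 for Csf2rb2. Without KRM RAS replicate 1 Csf2ra was also called lower, with -1.25 ± 0.231 (adjusted p = 0.0163).

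Between KRM and CD11chi Mϕ in RAS, 2 of 7 members passed, where 9.23% of all 13226 genes did (1221 genes). Csf2rb had a log2 difference of -1.79 ± 0.325 (SE, adjusted p = 0.0273) and no overlap between 68.6 to 140 and 241 to 409 CPM. Il34 was higher, with 3.95 ± 0.946 (adjusted p = 0.0424), although KRM RAS replicate 1 at 1.47 CPM lay within the range of CD11chi RAS. Of 8 dendritic cell markers 5 were lower in KRM, with sums of 112 to 171 CPM against 1026 to 5174, and of 11 tubular epithelium markers 3 were higher, with 642 to 4942 CPM against 209 to 332, and their part was not tested. Both calls were lost without any of CD11chi RAS replicates 2, 3 or 4 or KRM RAS replicates 2 or 3, with adjusted p from 0.0552 to 0.168, and with the replicate number as a block, where the adjusted p was 0.0954 for Csf2rb and 0.065 for Il34. With KRM RAS replicate 1 alone the log2 difference was 0.67 for Il34 and -1.32 for Csf2rb. Csf2rb2 also did not overlap between the groups, with -0.86 ± 0.260 (adjusted p = 0.0721). Csf1 (0.90 ± 0.374), Csf2ra (-0.76 ± 0.390) and Csf3r (1.09 ± 0.822) were not called. Without CD11chi RAS replicate 1, Csf1r was called higher in KRM, with 1.56 ± 0.351 (adjusted p = 0.0291) in place of 0.96 ± 0.498 (adjusted p = 0.239). In that omission Csf3r was at 2.24 ± 0.659 (adjusted p = 0.0574) and Csf1 at 1.21 ± 0.354 (adjusted p = 0.0564), without a call. Without KRM RAS replicate 1, Csf2ra (-1.44, adjusted p = 0.0123) and Csf2rb2 (-1.16, adjusted p = 0.0203) were called as well.

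Between CD11chi and CD11clo Mϕ in RAS, 2 of 6 members passed, where 8.27% of all 12305 genes did (1018 genes). Csf3r was lower in CD11chi Mϕ by a log2 fold change of -4.01 ± 0.860 (SE, adjusted p = 0.0234) and Csf1 by -3.56 ± 0.441 (adjusted p = 0.00366), the latter in every omission of a single library (adjusted p of at most 0.0208). Of the monocyte markers 6 of 10 were lower in CD11chi Mϕ (1159 to 2870 CPM summed, against 3575 to 10466), as were 5 of 8 tested neutrophil markers (8.62 to 302 against 2161 to 3797). Higher were 6 of 8 dendritic cell markers (1026 to 5174 against 112 to 393) and 5 of 7 tested T and NK cell markers (75.9 to 240 against 10.7 to 63.1), and the part of these markers was not tested. The call for Csf3r was lost without CD11chi RAS replicates 2, 3 or 4 or CD11clo RAS replicates 2 or 4 (log2 fold changes of -4.05 to -3.57, adjusted p of 0.0538 to 0.0682). Csf1r did not overlap between the groups, with -1.35 ± 0.444 (adjusted p = 0.0886), and was called without CD11chi RAS replicate 1 (-1.92 ± 0.331, adjusted p = 0.00683) and by DESeq2 (-1.37, adjusted p = 0.0134). The beta chain genes, which did not overlap between these populations in Sham, had smaller differences here, -0.31 ± 0.284 for Csf2rb and -0.35 ± 0.189 for Csf2rb2, and Csf2ra was at 0.19 ± 0.202. The comparisons between populations within a treatment share libraries pair by pair and are not independent of each other.

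Both ligand genes of CSF1R were higher in KRM from RAS than from Sham kidneys. Of 7 members 2 passed, where 9.7% of all 12852 genes did (1247 genes), both of them higher, where 7.77% of all genes were higher and 1.94% lower. Il34 had a log2 fold change of 4.74 ± 0.847 (SE, adjusted p = 0.0257) and Csf1 of 1.43 ± 0.338 (adjusted p = 0.0419), with no overlap for either, though KRM RAS replicate 1 was at 1.47 CPM of Il34 and 12.4 CPM of Csf1 against highest Sham values of 0.741 and 11.2. Csf1r (-0.61 ± 0.227, adjusted p = 0.11) and Csf2ra (-1.05 ± 0.372, adjusted p = 0.0974) also did not overlap, all RAS values lying below all Sham values, and were not called. Csf2rb (-0.28 ± 0.216), Csf3r (-0.13 ± 0.193) and Csf2rb2 (-0.06 ± 0.206) overlapped. Summed tubular epithelium markers were at 642, 4942 and 3795 CPM in the RAS libraries and 126 to 1149 in Sham, and 4 of 10 tested were called higher. Summed fibroblast and pericyte markers were at 44.2, 414 and 484 CPM against 19.3 to 41.9, with 4 of 6 called higher, and summed endothelium markers at 17.0, 226 and 196 against 11.1 to 24.7, with 3 of 7 called higher. Of the T and NK cell markers 7 of 8 were called higher and 1, Cd4, lower. Of 8 dendritic cell markers 3 were higher and 1 lower, with sums of 134, 171 and 112 CPM against 86.2 to 109, and of 10 monocyte markers 2 were higher and 1 lower. Summed macrophage identity markers were at 8155 to 13496 CPM in RAS and 15742 to 23163 in Sham, with 1 of 10 called lower. The part of these markers in the values of the members was not tested.

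These calls changed with the libraries that entered. Without KRM RAS replicate 1, 6 of 7 members were called, Csf2ra with -1.74 ± 0.160 (adjusted p = 0.000157), Csf1r with -0.94 ± 0.149 (adjusted p = 0.00164), Csf2rb with -0.62 ± 0.142 (adjusted p = 0.00823) and Csf3r with -0.41 ± 0.140 (adjusted p = 0.0418) as lower, Il34 with 5.22 ± 0.300 (adjusted p = 2.06e-05) and Csf1 with 1.67 ± 0.265 (adjusted p = 0.00172) as higher. With KRM RAS replicate 1 as the single RAS library the log2 fold change was 1.41 for Il34 and 0.59 for Csf1. Without KRM RAS replicate 2, without KRM RAS replicate 3, or without any of KRM Sham replicates 1, 2 and 4, neither ligand gene was called (adjusted p of 0.0843 to 0.164), and without KRM Sham replicate 3 Csf1 was not (adjusted p = 0.0569). The direction of both held in every omission, from 4.13 to 5.22 for Il34 and from 1.21 to 1.67 for Csf1. DESeq2 called 4 members, Csf1r (-0.62, adjusted p = 0.0231) and Csf2ra (-1.07, adjusted p = 0.0163) in addition to the ligand genes.

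In the monocyte-derived populations no member was called between RAS and Sham. In CD11chi Mϕ 0 of 7 passed, as did 0% of all 12739 genes with edgeR, and DESeq2 called 0 members among 190 genes. An unadjusted p under 0.05 was reached by 1247 genes and 2 members, Csf2rb with a difference on the log2 scale of 1.12 ± 0.435 (SE, adjusted p = 0.508) and Csf2rb2 with 1.07 ± 0.409 (adjusted p = 0.508), both without overlap between 3 Sham and 4 RAS libraries. These 2 also passed a fold above 2 with an unadjusted p under 0.05, as did 8.07% of all genes. The others were Csf1r at -0.66 ± 0.632, Csf1 at -0.05 ± 0.454, Il34 at -1.40 ± 1.38, Csf2ra at 0.26 ± 0.382 and Csf3r at -1.05 ± 0.966. Without CD11chi RAS replicate 1, Csf3r was at -2.20 ± 0.883 (adjusted p = 0.286), Csf1r at -1.26 ± 0.551 (adjusted p = 0.318) and Csf1 at -0.36 ± 0.443. Without CD11chi Sham replicate 3, the library richest in tubular epithelium markers, the sign turned for Il34 (2.99 ± 1.24, adjusted p = 0.599), Csf1 (0.24) and Csf2ra (-0.06), while Csf2rb was at 0.75 and Csf2rb2 at 0.70. In CD11clo Mϕ 0 of 6 passed, as did 0% of all 12301 genes with edgeR, and DESeq2 called 0 members among 103 genes. An unadjusted p under 0.05 was reached by 1102 genes and 2 members, Csf3r with 1.31 ± 0.411 (adjusted p = 0.553) and Csf1 with 1.13 ± 0.453 (adjusted p = 0.553), both with overlap, and these too passed with a fold above 2, as did 4.37% of all genes. The others were Csf1r at 0.45 ± 0.259, Csf2ra at 0.01 ± 0.161, Csf2rb at 0.07 ± 0.273 and Csf2rb2 at 0.06 ± 0.240.

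The difference between populations in their response to RAS was tested by interaction terms in 1 fit over all 21 libraries, and 0 of 7 members passed in each of the 3. For KRM against CD11chi Mϕ 0.11% of all 14504 genes were called (16 genes), 3347 genes and 4 members had an unadjusted p under 0.05, and DESeq2 called 3 members among 1327 genes. With a fold above 2 at that p, 4 members and 18.8% of all genes passed. The 3 called by DESeq2 were Il34 (log2 difference 6.22, adjusted p = 0.00936), Csf2rb (-1.46, adjusted p = 0.0369) and Csf2ra (-1.37, adjusted p = 0.0383), for which edgeR gave 5.86 ± 1.75 (SE, adjusted p = 0.0784), -1.57 ± 0.507 (adjusted p = 0.0922) and -1.48 ± 0.495 (adjusted p = 0.101). The fourth member with that fold and p was Csf2rb2 (-1.30 ± 0.474, adjusted p = 0.121), and the others were Csf1r (-0.10 ± 0.640), Csf1 (1.27 ± 0.615) and Csf3r (0.78 ± 0.986). Leaving out CD11chi RAS replicate 1 gave 1.91 ± 0.845 for Csf3r (adjusted p = 0.167) and turned Csf1r to 0.47 ± 0.554 (adjusted p = 0.626). In edgeR the 3 genes called by DESeq2 were also called without CD11chi Sham replicate 1 or KRM RAS replicate 1, with adjusted p of 0.0103 to 0.0468, and Il34 (6.41, adjusted p = 0.0456) and Csf2rb2 (-1.72, adjusted p = 0.0498) without CD11chi Sham replicate 2. Without CD11chi Sham replicate 3 the log2 difference was only 1.66 ± 1.91 for Il34 (adjusted p = 0.888), -1.08 for Csf2rb, -1.03 for Csf2ra and -0.81 for Csf2rb2 (adjusted p of 0.417 to 0.541). With KRM RAS replicate 1 as the single KRM RAS library it was 2.60 for Il34, -1.10 for Csf2rb, -0.68 for Csf2ra and -0.85 for Csf2rb2. For KRM against CD11clo Mϕ 0.4% were called (58 genes), 2507 genes and 2 members had an unadjusted p under 0.05, and DESeq2 called 0 members among 581 genes. With a fold above 2 at that p, 2 members and 14.1% of all genes passed. These were Il34 (4.57 ± 1.76) and Csf2ra (-1.16 ± 0.493), next to Csf1r (-1.18 ± 0.648), Csf1 (0.18 ± 0.604), Csf2rb (-0.46 ± 0.499), Csf2rb2 (-0.22 ± 0.466) and Csf3r (-1.55 ± 1.01). Without KRM RAS replicate 1 Csf2ra was called (-1.84, adjusted p = 0.0234). Il34 was at 2.46 ± 2.05 (adjusted p = 0.692) without CD11clo Sham replicate 3, also rich in tubular epithelium markers, and with KRM RAS replicate 1 alone Il34 was at 1.32 and Csf2ra at -0.36. For CD11chi against CD11clo Mϕ 0% were called, 1457 genes and 3 members had an unadjusted p under 0.05, and DESeq2 called 0 members among 98 genes. With a fold above 2 at that p, 3 members and 7.36% of all genes passed. These were Csf3r (-2.33 ± 1.00), Csf2rb (1.11 ± 0.498) and Csf2rb2 (1.07 ± 0.467), next to Csf1r (-1.08 ± 0.642), Csf1 (-1.09 ± 0.613), Il34 (-1.29 ± 1.76) and Csf2ra (0.31 ± 0.486), of which Il34 turned to 2.91 ± 1.66 (adjusted p = 0.486) and Csf2ra to -0.08 without CD11chi Sham replicate 3. Leaving out CD11chi RAS replicate 1 gave -3.46 ± 0.874 for Csf3r (adjusted p = 0.0515) and -1.64 ± 0.562 for Csf1r (adjusted p = 0.146). The 3 interactions share libraries.

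Of the other ligands and receptors of this system, Csf2 itself was seen in KRM from RAS kidneys alone at more than 1 CPM. Of the 8 genes in that list 3 could be tested in KRM, and Csf2 and Sdc1, a proteoglycan that binds IL-34, were called higher in RAS, where 7.77% of all genes were. Csf2 was at 0 counts in all 4 KRM Sham libraries and at 1.57, 1.30 and 1.83 CPM (15 to 20 counts) in the RAS libraries, so that it was at least 5.49-fold higher against a floor of 3 counts per library (adjusted p = 0.0251). T and NK cells are among the known sources of GM-CSF, and 7 of their 8 markers were called higher in the same comparison, with a list median log2 fold change of 5.30, while Cd4 was called lower. Their summed level was 349, 55.6 and 57.7 CPM in the RAS libraries against 79.0 to 109 in Sham. The part of these markers in the Csf2 level was not tested. The call was lost when KRM RAS replicate 2 (adjusted p = 0.0901), KRM RAS replicate 3 (0.107), or KRM Sham replicate 1, 2 or 4 (0.0555 to 0.0694) was left out, and with the replicate number as a block (adjusted p = 0.147), and was kept without KRM RAS replicate 1 (adjusted p = 0.0042). The fitted log2 fold change, which with Sham at 0 depends on the prior count, was 7.23 with all libraries, 7.03 to 7.34 over the single omissions and 7.22 with KRM RAS replicate 1 alone. Sdc1 was at 40.4 ± 32.1 CPM in KRM RAS (SD, n = 3) and 3.14 ± 0.632 in KRM Sham (n = 4), a log2 fold change of 3.81 ± 0.736 (SE, adjusted p = 0.0286), with 5.21 CPM in KRM RAS replicate 1 and 68.0 and 48.0 in the libraries rich in tubular epithelium markers. Il3 and Il5 had no counts in any library.

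**Figure D5:**
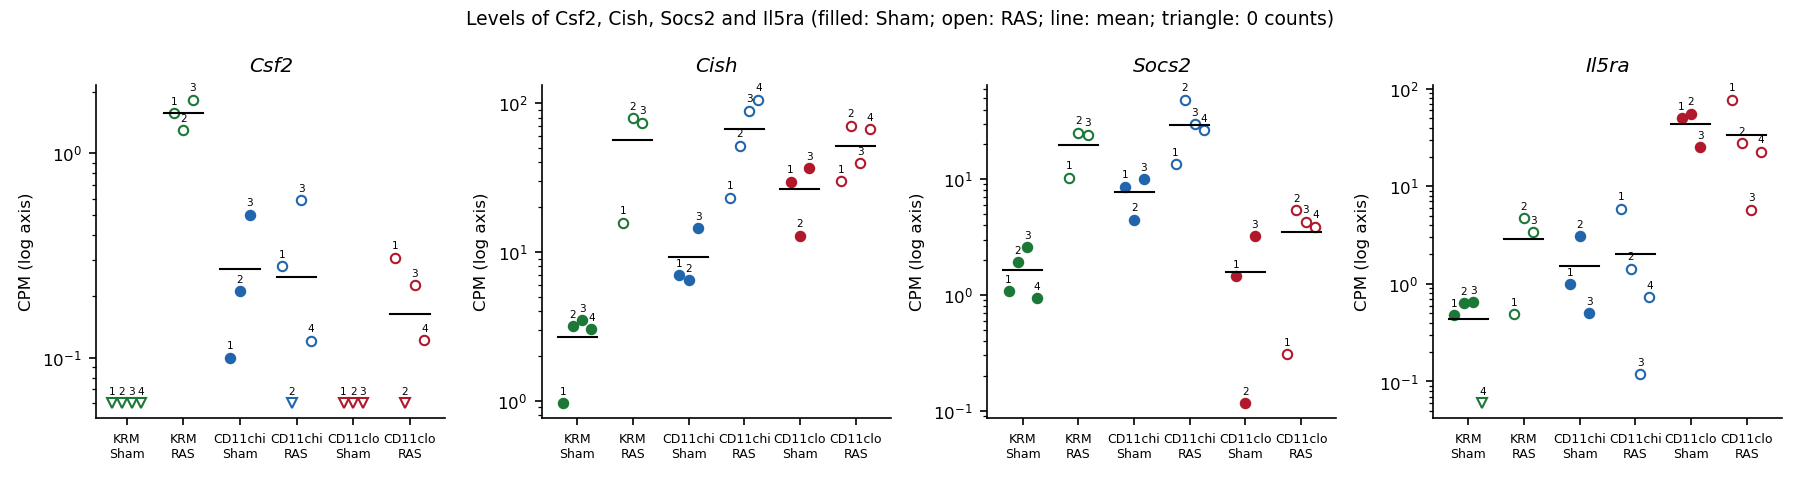
CPM of Csf2, Cish, Socs2 and Il5ra on log axes in the 6 groups; each point is 1 library with its replicate number, filled for Sham and open for RAS, triangles mark 0 counts and lines are group means. Csf2 is at 0 in all KRM Sham libraries and at 1.30 to 1.83 CPM in KRM RAS, Cish is at 0.963 to 3.49 CPM in KRM Sham against 15.7 to 79.2 in KRM RAS, and Il5ra is highest in CD11clo Mϕ.

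Among the 14 genes of JAK2 and STAT5 signalling downstream of the beta chain and CSF3R, 3 were higher and 0 lower in KRM from RAS kidneys, with a list median log2 fold change of 0.21 against 0.02 for all genes, of which 7.77% were higher and 1.94% lower. They were the feedback inhibitors Cish (2.66 ± 1.15 CPM in Sham, n = 4, and 56.3 ± 35.3 in RAS, SD, n = 3; log2 fold change 4.48 ± 0.631, SE, adjusted p = 0.0163), Socs2 (1.63 ± 0.769 and 19.9 ± 8.33 CPM; 3.67 ± 0.477, adjusted p = 0.014) and Socs1 (7.08 ± 2.11 and 14.3 ± 1.89 CPM; 1.13 ± 0.276, adjusted p = 0.0445). In the KRM RAS libraries Cish was at 15.7, 79.2 and 74.1 CPM and Socs2 at 10.3, 25.2 and 24.3, each above every KRM Sham library. The calls for Cish and Socs2 were lost without KRM RAS replicate 2, KRM RAS replicate 3 or KRM Sham replicates 1, 2 or 4, with adjusted p of 0.0511 to 0.0667, and with KRM RAS replicate 1 as the single RAS library the log2 fold changes were 2.58 and 2.66. With KRM RAS replicate 1 left out they were 4.86 (adjusted p = 4.64e-05) and 3.92 (adjusted p = 0.000207). In the same comparison 2 of 22 CSF1R signalling genes were higher and 0 lower, Src (2.38 ± 0.323, adjusted p = 0.0156) and Dok2 (1.83 ± 0.348, adjusted p = 0.028), with a median of -0.22. Markers of several other cell types were called higher in the same comparison, as given above, and the part of those markers was not tested.

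Between KRM and CD11clo Mϕ in Sham, the JAK2 and STAT5 list had 1 gene higher and 11 lower in KRM of 14 tested, with a median log2 fold change of -0.84 against -0.04 for all genes, of which 19.5% were higher and 22.4% lower. The largest changes were in Cish (-3.29 ± 0.478, SE, adjusted p = 0.00095), the kinase gene Pim1 (-2.28 ± 0.280, adjusted p = 0.000395) and the survival gene Bcl2l1, which was the gene higher in KRM (2.24 ± 0.125, adjusted p = 6.75e-06; 131 ± 11.2 against 27.4 ± 2.09 CPM, SD, n = 4 and 3). Of 22 CSF1R signalling genes 5 were higher and 13 lower, with a median of -0.53. The adaptor genes Dok2 (-4.25 ± 0.248, adjusted p = 8.47e-06) and Dok1 (1.63 ± 0.162, adjusted p = 0.00013) moved in opposite directions, and the kinase gene Src was higher in KRM (3.30 ± 0.751, adjusted p = 0.00859) at only 2.62 ± 0.491 against 0.248 ± 0.219 CPM. Of 8 regulators of Csf1r transcription 4 were higher and 3 lower in KRM. Cebpb, a C/EBP factor, was lower (-3.56 ± 0.198, adjusted p = 6.65e-06; 160 ± 33.5 against 1870 ± 328 CPM), Ets2 was lower (-1.96 ± 0.158, adjusted p = 4.28e-05) and Runx1 higher (1.72 ± 0.138, adjusted p = 4.24e-05). Il5ra, the alpha chain gene of the IL-5 receptor, was at 43.5 ± 16.1 CPM in CD11clo Sham and 0.441 ± 0.304 in KRM Sham (-6.54 ± 0.618, adjusted p = 9.93e-05), and was the single gene called of the 3 other ligands and receptors tested. Summed mast cell, basophil and eosinophil markers were at 25.6, 42.5 and 18.1 CPM in CD11clo Sham and 1.44 to 3.74 in KRM Sham, and their part in the Il5ra level was not tested.

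In the other comparisons fewer pathway genes were called, and the shares of all genes called were 5.13% in KRM against CD11chi Mϕ in Sham and 9.23% in RAS, 9.17% in KRM against CD11clo Mϕ in RAS (5.89% lower), and 1.52% and 8.27% in CD11chi against CD11clo Mϕ in Sham and RAS. KRM against CD11chi Mϕ in Sham had Sdc1 (-2.28 ± 0.260, SE, adjusted p = 0.00623) of the 2 other ligands and receptors tested, Dok2 (-3.43 ± 0.537, adjusted p = 0.0169) of 22 CSF1R signalling genes, and Bcl2l1 (0.95 ± 0.179, adjusted p = 0.0281) and Socs2 (-2.27 ± 0.494, adjusted p = 0.0451) of the 14 JAK2 and STAT5 genes. In RAS the same populations differed in Dok2 (-3.24 ± 0.368, adjusted p = 0.00802) and the kinase gene Fyn (-1.90 ± 0.382, adjusted p = 0.0318), and in 1 higher and 2 lower of the 14, Bcl2l1 (1.53 ± 0.285, adjusted p = 0.0282), Jak2 (-2.32 ± 0.419, adjusted p = 0.027) and Stat5a (-1.56 ± 0.218, adjusted p = 0.0166). Jak2 was at 231 ± 115 CPM in CD11chi RAS (SD, n = 4) and 44.3 ± 2.78 in KRM RAS (n = 3). KRM against CD11clo Mϕ in RAS had 0 higher and 6 lower of the 14, 0 and 4 of the 22, and 0 and 1 of the 8 regulators, the last being Cebpb (-2.51 ± 0.343, adjusted p = 0.0155). CD11chi against CD11clo Mϕ had Il5ra alone of these lists in Sham (-4.76 ± 0.714, adjusted p = 0.0413), and in RAS Cebpb (-2.09 ± 0.355, adjusted p = 0.0103), Ets2 (-1.97 ± 0.481, adjusted p = 0.0375), Il5ra (-3.97 ± 1.01, adjusted p = 0.0414), Lyn (-1.01 ± 0.251, adjusted p = 0.0397), Fyn (1.66 ± 0.288, adjusted p = 0.0111), Sdc1 (2.11 ± 0.358, adjusted p = 0.0103) and Socs2 (3.10 ± 0.673, adjusted p = 0.0246). In KRM from RAS kidneys against Sham 1 of the 8 regulators was higher and 2 were lower, where 7.77% and 1.94% of all genes were, among them Cebpb (1.07 ± 0.250, adjusted p = 0.0408) and Runx1 (-0.99 ± 0.234, adjusted p = 0.0414). No gene of the 4 pathway lists was called between RAS and Sham in the monocyte-derived populations, where 0% of all genes were, or in the interactions.

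The balance of the receptor genes was described within libraries, a measure chosen after the values had been seen and given without a test. Per 100 counts of Csf1r, KRM had 3.53 to 3.76 counts of Csf2rb in Sham and 4.45 to 4.61 in RAS, the library labelled KRM RAS replicate 1 being at 4.56. CD11chi Mϕ had 7.06 to 10.4 in Sham, and 10.2, 73.6, 40.7 and 45.1 in RAS. CD11clo Mϕ had 12 to 24.7 in Sham and 6.88 to 25.0 in RAS. The 3 CD11chi RAS libraries with the highest ratio were those with 1999 to 5174 CPM of summed dendritic cell markers, all 8 of which were detected in them or other libraries. Within these 3 the highest ratio, 73.6, was in replicate 2, which had the lowest sum, 1999 CPM. CD11chi Sham replicate 1, with a sum of 1779 CPM, was at 10.4. The part of those markers in the ratio was not tested.

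The genes whose pattern over the 21 libraries was most like that of each member were found by the root mean square difference of centred log2 CPM among 8887 expressed genes. For Csf1r they were Sec14l1 (0.29), Sepn1 (0.30) and the phagosomal transporter gene Slc11a1 (0.30), where the median of all genes was 0.91. For Csf2ra they were Irf5 (0.21), Csk (0.22) and Dennd1c (0.22), against a median of 0.67. The beta chain genes shared Rac2 (0.30 for both), next to Arpc1b (0.29) and Arhgdib (0.30) for Csf2rb and Ms4a6d (0.24) and the NADPH oxidase subunit gene Ncf1 (0.29) for Csf2rb2, with medians of 1.01 and 0.82. Csf1, Csf3r and Il34 had no gene as near. The nearest were Abtb2 (0.76), Fas (0.81) and Cebpb (0.82) for Csf1, the formyl peptide receptor gene Fpr2 (0.79), the scavenger receptor gene Msr1 (0.84) and Dmxl2 (0.90) for Csf3r, and Cttn (0.66), Tsc22d1 (0.67) and Rnf128 (0.76) for Il34, against medians of 1.62, 1.83 and 1.87.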

How the data were processed

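RNA was amplified with an ultra-low-input kit and sequenced as Nextera XT libraries, and the authors aligned paired-end reads to mm10 with the OSA aligner and assigned them to Ensembl genes. The deposited count table holds estimated counts per gene, with fractions. The deposited second table holds log2(TPM + 1) after quantile normalization, which the values show to be on the log2 scale. The authors tested genes with DESeq2. Here, 3730 lines that share a name were summed, leaving 34236 names of 37620 lines, and rounded. Totals were 6891177 to 18592427 counts per library, and counting error is small beside the spread between libraries, whose smallest chi-square per degree of freedom in a group was 4.95. That value was from CD11chi RAS replicates 3 and 4, against 86.8 to 118 for the other pairs of their group. KRM RAS replicates 2 and 3 were at 9.58, against 99.2 and 126 for their pairs with replicate 1. Such near pairs enter the fits as separate libraries, and the labels do not say whether they came from separate animals.

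Groups came from the labels. edgeR 4.0.16 (R 4.3.3) was used with TMM factors, filterByExpr (minimum count 10, minimum total 15) and its quasi-likelihood F test. Only the libraries being compared entered each fit, and p-values, all two-sided, were adjusted over all genes by Benjamini-Hochberg. Differences in response were interaction terms in 1 fit over the 6 groups. Log2 CPM for the likeness measure carried a prior count of 2. Genes are called at an adjusted p under 0.05. How many of all genes do not overlap between groups was not counted, so that an absence of overlap is no support beyond the test. The members, lists, comparisons and tests were chosen with earlier results of these data known. Every member that could be tested is given in every comparison, and of each pathway list at most the 3 called genes with the largest change. A further result from these lists is not reported here. Of the list genes all were found, 4 under older symbols. The alternatives were median-of-ratios factors, library size alone, no filter, a minimum of 10 counts throughout, a shared fit of the 6 groups, blocking on replicate number, limma 3.58.1 run on the second table, DESeq2 1.42.0, a fold above 2 with an unadjusted p under 0.05, lines kept apart, and each library left out (84 refits). Setting aside CD11chi RAS replicate 1, or KRM RAS replicates 2 and 3, and limma without the KRM RAS replicate 1 column were chosen after seeing the data. The method was tested on simulated data. Deviations of same-numbered libraries from their group means were correlated. Between populations the values were 0.201 to 0.647 in Sham and 0.0535 to 0.505 in RAS, and between treatments -0.196 to 0.325. The Sham values of replicate 3 were 0.542 to 0.647 and those of replicates 1 and 2 were 0.201 to 0.385. Libraries with different numbers were not correlated, so that whether the numbers pair the libraries was not tested. Gene positions are from GENCODE on GRCm38.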

Additional observations from a re-analysis of the deposited data

Results flagged for a closer look

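In 21 sets of 4 libraries (7 genes in the 3 groups of that size) 1 value stood apart by Dixon's criterion, which chance exceeds in about 1 in 20 sets. It was Csf2rb in CD11chi RAS replicate 1, at 241 CPM against 396 to 409 in the other 3 libraries of its group. The same library had 2360 CPM of Csf1r against 539 to 973, and 1026 CPM of summed dendritic cell markers against 1999 to 5174.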

How the results depend on the processing

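Of 17 single-gene results that were called, 240 of 318 alternative values kept the call, 78 lost it and 0 turned direction. Of 62 that were not called, 77 of 1487 alternative values passed the threshold in the same direction, and 70 differed in sign without a call on either side. The following counts are members called where they moved by more than 1.5 times. A fold above 2 with an unadjusted p under 0.05 gave 4 in CD11chi against CD11clo Mϕ in Sham, 2 in RAS against Sham in CD11chi Mϕ, 2 in CD11clo Mϕ, and 4, 2 and 3 in the interactions of KRM with CD11chi Mϕ, KRM with CD11clo Mϕ and CD11chi with CD11clo Mϕ. A shared fit gave 3 in KRM against CD11clo Mϕ in Sham, 3 in CD11chi against CD11clo Mϕ in Sham and 1 in KRM from RAS against Sham. The replicate block gave 2 in CD11chi against CD11clo Mϕ in Sham, 0 in KRM against CD11chi Mϕ in RAS and 0 in KRM from RAS against Sham. Whether the numbers pair the libraries was not tested. The block moved no other count of members by that much. DESeq2 gave 1 in CD11chi against CD11clo Mϕ in Sham, 4 in KRM from RAS against Sham and 3 in the interaction of KRM with CD11chi Mϕ. Limma on the log2 table gave 0 in KRM against CD11chi Mϕ in RAS and 1 in each of KRM against CD11clo Mϕ in RAS, KRM from RAS against Sham and both interactions with KRM, and without the KRM RAS replicate 1 column 6 in KRM from RAS against Sham and 4 and 2 in those interactions. A minimum of 10 counts in every library gave 1 in KRM against CD11chi Mϕ in RAS and 1 in KRM from RAS against Sham. Omitting replicate 3 of all Sham groups gave 1 in KRM against CD11chi Mϕ in Sham, 4 in CD11chi against CD11clo Mϕ in Sham and 1 in KRM from RAS against Sham. Setting aside KRM RAS replicates 2 and 3, which leaves 1 KRM RAS library of unsettled identity and draws the spread from the other group, so that lost calls say nothing about stability, gave 0 in KRM against CD11chi Mϕ in RAS, 0 against CD11clo Mϕ and 0 against Sham. Omitting single libraries gave 0 to 2 members in KRM against CD11chi Mϕ and in CD11chi against CD11clo Mϕ in Sham, 0 to 4 in KRM against CD11chi Mϕ in RAS, 0 to 6 in KRM against CD11clo Mϕ in RAS and in KRM from RAS against Sham, 1 to 3 in CD11chi against CD11clo Mϕ in RAS, and 0 to 3 and 0 to 1 in the interactions of KRM with CD11chi and CD11clo Mϕ.

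Counts of all genes moved further. DESeq2 called 4044 in place of 1247 genes in KRM from RAS against Sham, 3030 in place of 1221 in KRM against CD11chi Mϕ in RAS, 3449 in place of 1208 in KRM against CD11clo Mϕ in RAS and 2019 in place of 1018 in CD11chi against CD11clo Mϕ in RAS. The block left 42 and 101 in the first 2 of these. Fits with the single KRM RAS library called 174, 0 and 6 genes in the first 3, which, with 1 library in that group, is no measure of stability. The cause was not tested. Il34 and Csf2 rest on few counts (0 to 17 for Il34 in 18 of 21 libraries), and with 3 or 4 libraries a group a difference within the spread of its groups could not be detected.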

Other observations

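The proportion of the 2 beta chain genes differed between populations. Per 100 counts of Csf2rb, KRM had 27.2 to 30.2 counts of Csf2rb2 in Sham and 33.1 to 35.2 in RAS, and all 7 KRM libraries lay above the 14 others, which had 14.5 to 23.1 in CD11chi Mϕ and 15.4 to 23.1 in CD11clo Mϕ. This ratio was chosen after its values were seen and was not tested, and the stretches that both transcripts share could move reads between the genes. Csf3, the ligand of CSF3R, was at 0 to 6.81 CPM in CD11clo RAS, at 0.103 to 1.44 in CD11clo Sham and at most 0.355 in the other groups. Il3ra, the alpha chain gene of the IL-3 receptor, had group means from 7.12 ± 2.64 CPM (SD, n = 3) in KRM RAS to 13.9 ± 5.49 (n = 4) in CD11chi RAS.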
